A study of Mus musculus with 4 samples.

Results

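Genes of ion exchangers, cation-coupled cotransporters and cation pumps were followed in the hippocampus of mice of the inbred strain C57BL/6. Members were chosen by gene symbol: the solute carrier families Slc4 (bicarbonate), Slc8 and Slc24 (sodium/calcium exchange), Slc9 (sodium/proton exchange), Slc12 (cation/chloride cotransport), Slc20 and Slc34 (phosphate) and Slc26 (anions), the pump subunit genes Atp1a, Atp1b, Atp2a, Atp2b and Atp2c, and the Fxyd genes. Slc4a2, Slc4a5, Slc4a10 and Slc12a2 were left out by the rule. The deposited table lists 15713 genes, and 53 of them were members. The annotation holds 72 protein-coding symbols that fit the rule; the other 19, among them all of Slc34, are not analysed here.

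RNA sequencing was done on 4 libraries from mice 11 to 12 weeks of age. The 2 control libraries came from untreated mice, and the 2 ATO libraries from mice with a developmental exposure to ATO at 5000 ppb. ATO is not written out in any label, while the series title names arsenic and offspring. No label gives the sex, the route of exposure or its dates, or says whether replicates came from separate animals. The p-values therefore rest on the spread between these libraries, which may be technical.

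These proteins set the ion gradients of brain cells. The sodium pump, a catalytic alpha with a beta subunit and often a small FXYD protein, spends ATP to export sodium and import potassium. Exchangers and cotransporters then use the sodium or potassium gradient to move calcium, protons, chloride, bicarbonate and phosphate. In hippocampal neurons the balance of chloride extrusion and uptake sets the action of GABA, and calcium pumps and exchangers clear the calcium that enters during firing.

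The deposited counts summed to between 14832214 and 17251032 per library. Members took 11704 and 12378 normalised CPM in control libraries and 11196 and 11888 in ATO libraries, where normalised CPM are counts divided by the library size after TMM scaling (CPM below). At the depths reached, 1 count is worth 0.0574 to 0.0678 normalised CPM. Fold changes were fitted on all 15713 genes with edgeR's quasi-likelihood test; a gene rose or fell when its Benjamini-Hochberg adjusted p over all genes was under 0.05. Markers of the tissue were present in every library: 9 dentate granule markers summed to 435 and 384 CPM in control libraries and 529 and 470.4 in ATO libraries, and 5 CA1 markers to 515 and 512 against 347 and 475. Markers of the choroid plexus, the epithelium in the ventricles that secretes cerebrospinal fluid, were far higher in ATO. All 15 of these markers rose, 0 of them were at 0 counts in any library, and their summed level was 139.7 and 214 CPM in the controls against 3329 and 4180 in ATO. Of 12 ependymal and ciliated markers 7 rose and 0 fell, with a median log2 fold change of 1.35, 0 at 0 counts and a summed level of 31.5 and 33.97 CPM against 70.4 and 50.5. Of 9 markers of the leptomeninges, the membranes around the brain, 8 were higher in ATO (1 rose, 1 fell), 6 of them with an unadjusted p under 0.05, and the median was 0.69. Their sum (114 and 93.9 CPM against 136 and 95.2, 0 at 0 counts) holds a large part from Dcn, which fell from a mean of 61.8 to 42.0 CPM.

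Among the 53 members 4 rose in ATO and 0 fell. Those that rose were Fxyd1, Slc12a4, Slc12a7 and Slc26a7. They are 7.55% of the members. Of all genes tested 3.73% passed, 2.87% higher and 0.859% lower in ATO. The calls lie near the threshold: 1 member, Fxyd1, rose without control replicate 1 or without either ATO library, 0 rose without control replicate 2, and DESeq2's Wald test gave 0 and limma-voom 3. The authors' deposited table gives 3 members an adjusted p under 0.05 and marks 0 as differentially expressed. No member fell in DESeq2 or limma-voom either; at an unadjusted p under 0.05, 5 members were lower (7.55% of all genes were) and 4 higher (10.6% of all genes were). In bulk tissue fewer cells of a type and less RNA per cell cannot be told apart, which holds for every difference given here.

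Most differences were small. The fold change was under 1.2 in either direction for 43 members (81.1%), against 73.7% of all genes. This comparison was not matched for level: the median was 8.34 FPKM over the members and 4.98 over all genes. Of the 32 members at 5 FPKM or more 93.75% were under 1.2-fold, and of the 21 below that level 61.9%. The median log2 fold change was -0.045 over the members and -0.0050 over all genes. Only Slc26a7, Slc12a7 and Atp2c2 differed by more than 1.5-fold, and Atp2c2, a secretory pathway calcium pump gene at 0.740 FPKM, did not pass (-0.59 ± 0.31, adjusted p = 0.334). Both ATO libraries lay above both controls for 12 members (24.8% of all genes) and below them for 15 (23.4% of all genes), and the groups overlapped for 26. The groups were thus apart for 50.9% of the members, near the 48.1% of all genes.

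**Figure D1:**
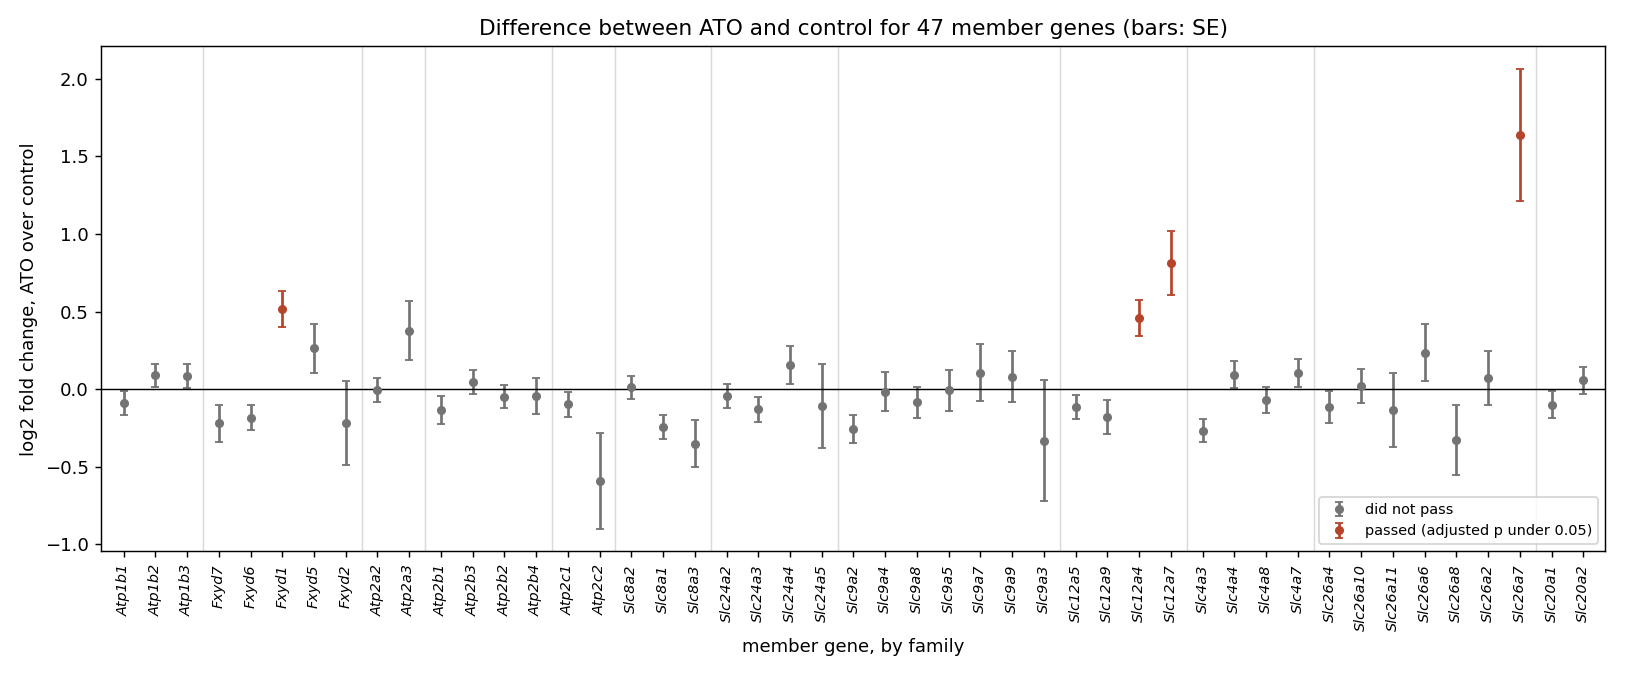
Log2 fold change of ATO over control (vertical axis) with its SE (bars) for 47 of the members, grouped by family along the horizontal axis. The 4 coloured points, Fxyd1, Slc12a4, Slc12a7 and Slc26a7, passed and lie above 0; 37 of those plotted lie within a 1.2-fold change.

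Levels per transcript length, taken from the deposited FPKM (fragments scaled by transcript length and library size), spanned a wide range, from 0.218 for Slc26a7 to 615 for Atp1b1 as means of the 4 libraries. Atp1b1, a beta subunit gene of the sodium pump, was the highest member. Of the 18 members at 20 FPKM or more 0 passed, and their log2 fold changes ran from -0.22 to 0.090. The 95% intervals of these 18 differences together reached from -0.47 to 0.25, that is from 1.39-fold lower to 1.19-fold higher.

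**Figure D2:**
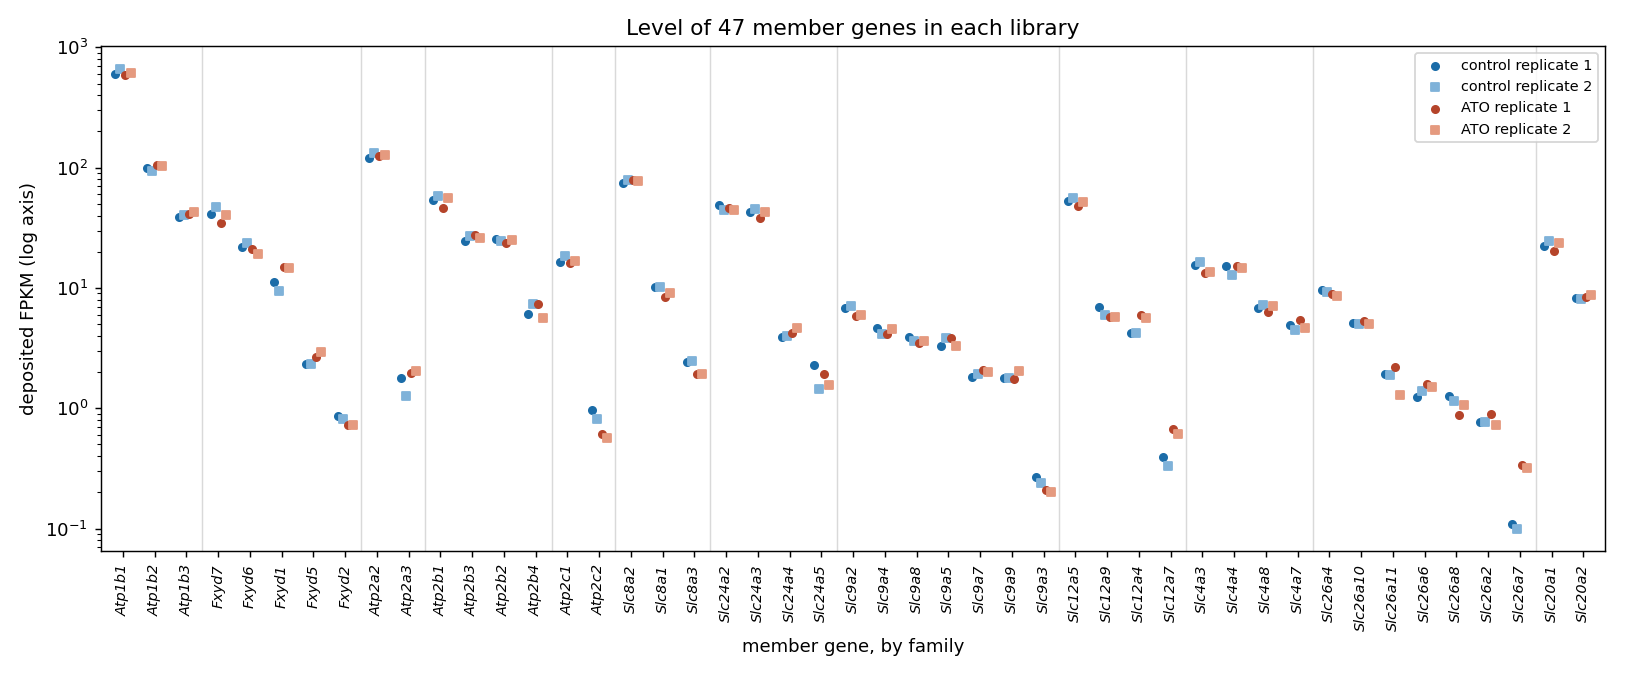
Deposited FPKM (log axis) of 47 of the members in each of the 4 libraries, ordered by family and level. The 4 points of a gene lie close together against the span between genes, from 0.218 for Slc26a7 to 615 for Atp1b1.

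The beta subunits of the sodium pump, which bring it to the cell surface, kept similar shares in the 4 libraries, and 0 of 3 passed. Atp1b1 was at 1877 and 2041 CPM in control libraries and 1799 and 1885 CPM in ATO libraries (-0.089 ± 0.079, adjusted p = 0.606). The astrocytic Atp1b2 was at 413 and 383 CPM in control libraries and 423 and 425 CPM in ATO libraries (0.090 ± 0.075, adjusted p = 0.577). Both ATO libraries were above both controls for Atp1b2, by less than the gap between the controls. Atp1b3, at 40.8 FPKM, differed by 0.087. The share of Atp1b1 in the summed beta FPKM was 81.3% and 83.2% in control libraries and 80.1% and 80.6% in ATO libraries. Reads of Atp1b1 may include some of Nme7, whose exons overlap 18.7% of its exon bases on the opposite strand.

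Among the FXYD regulators of the pump Fxyd1 rose and no other did. Fxyd1 (ENSMUSG00000036570, chromosome 7 from 31051678 to 31057199, minus strand, GRCm38) encodes phospholemman, which modulates the affinity and turnover of the pump and is a target of protein kinases. It was at 24.9 and 20.5 CPM in control libraries and 32.4 and 32.3 CPM in ATO libraries, from counts of 367 and 309 against 565 and 537. The ATO libraries agree closely and lie above both controls, which differ 1.22-fold from each other. The rise was 1.43-fold (log2 0.51 ± 0.12 (SE), n = 2 per group, adjusted p = 0.0257 in edgeR's quasi-likelihood test). The call was lost without control replicate 2 (log2 0.38, adjusted p = 0.171) and with DESeq2 (adjusted p = 0.0653), and held without each of the other 3 libraries. Markers of the choroid plexus (15 of 15 rose, 139.7 and 214 against 3329 and 4180 CPM) moved with the groups too. So did ependymal markers (7 of 12 rose). Leptomeningeal markers did in part (8 of 9 higher, median log2 0.69). Both ATO libraries were above both controls for 5 of the 9 (24.8% of all genes) and below them for 1 (23.4% of all genes). The part of any of these in the rise was not tested.

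The other 4 Fxyd genes did not pass. Fxyd6, a neuronal member, was at 91.0 and 97.3 CPM in control libraries and 86.3 and 79.3 CPM in ATO libraries (-0.18 ± 0.082, unadjusted p = 0.0403, adjusted p = 0.251). Fxyd7, found in brain, was at 28.6 and 32.5 CPM in control libraries and 24.1 and 28.4 CPM in ATO libraries (-0.22 ± 0.12, adjusted p = 0.344). Both ATO libraries were below both controls in each case, with small gaps. Fxyd2, the gamma subunit of kidney pumps, had 51 and 49 counts in control libraries and 50 and 48 counts in ATO libraries and a difference of -0.22. Fxyd5, known as dysadherin, differed by 0.26. Per length Fxyd7 was the highest of the family, at 40.9 FPKM, followed by Fxyd6 at 21.5 and Fxyd1 at 12.6.

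**Figure D3:**
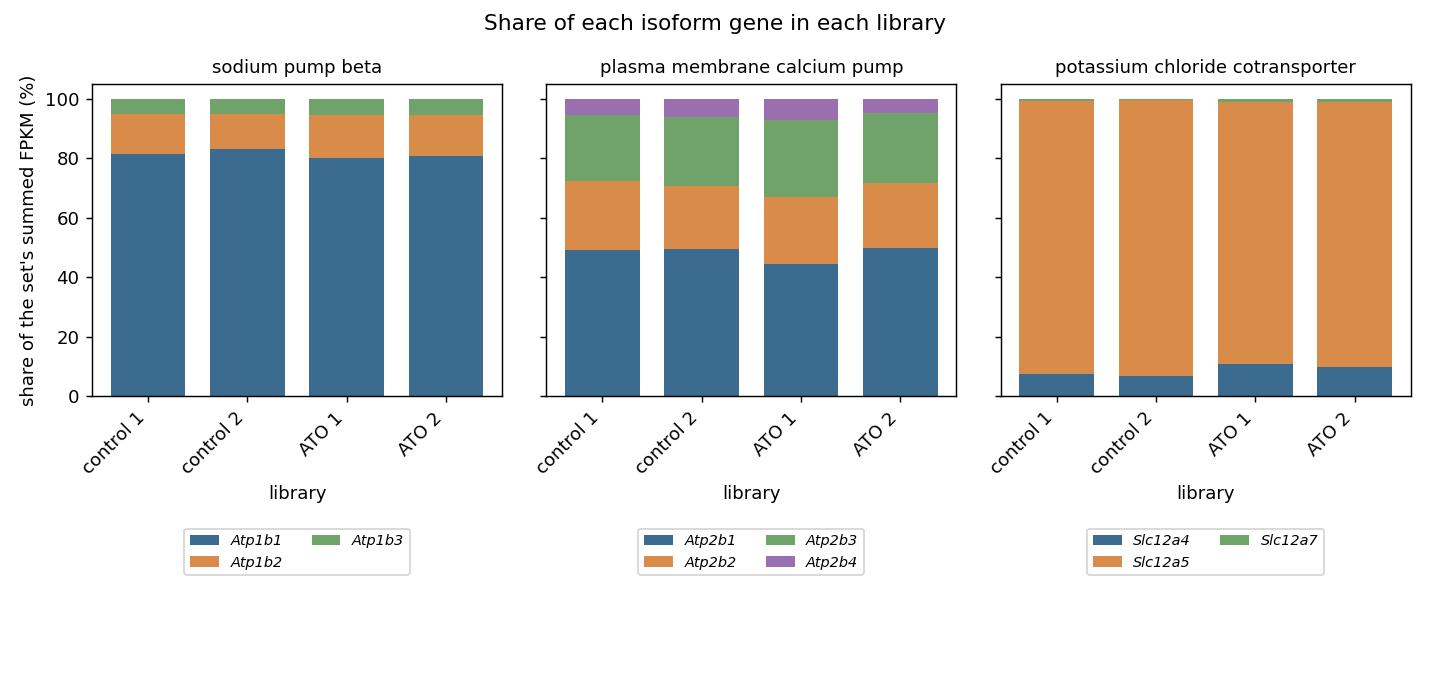
Share of each isoform gene in the summed deposited FPKM of its set (vertical axis, %) in the 4 libraries, for sodium pump beta subunits, plasma membrane calcium pumps and 3 potassium/chloride cotransporters. Atp1b1, Atp2b1 and Slc12a5 hold the largest share of their set in each library, and the share of Slc12a4 is 6.97% to 7.37% in the controls and 9.70% to 10.8% in ATO.

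Calcium pumps did not pass, with 0 of 8 genes. Atp2a2, which encodes the calcium pump of the endoplasmic reticulum (SERCA2), was at 732 and 802 CPM in control libraries and 754 and 773 CPM in ATO libraries. Its log2 fold change was -0.0067 ± 0.077, with a 95% interval of -0.17 to 0.16. The ATO values lie between those of the controls. Atp2a3, a second pump of that type, was low, at 9.50 and 6.69 CPM in control libraries and 10.2 and 10.8 CPM in ATO libraries (0.38 ± 0.19, adjusted p = 0.323); the controls differed 1.42-fold from each other, more than the groups.

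In the plasma membrane pumps, which push calcium out of the cell, the groups overlapped for all 4 genes. Atp2b1 was at 833 and 878 CPM in control libraries and 702 and 858 CPM in ATO libraries (-0.13 ± 0.092, adjusted p = 0.481). ATO replicate 1 was the low library, and replicate 2 lay among the controls. Atp2b2 was at 322 and 312 CPM in control libraries and 297 and 316 CPM in ATO libraries (-0.051 ± 0.074). Atp2b3 and Atp2b4 differed by 0.047 and -0.045, and the 2 ATO libraries of Atp2b4 differed 1.30-fold. Atp2b1 took 49.2% and 49.4% of the summed FPKM of the 4 in control libraries and 44.3% and 49.7% in ATO libraries. Of the Golgi pumps for calcium and manganese, Atp2c1 was at 160.4 and 181 CPM in control libraries and 155 and 164 CPM in ATO libraries (-0.097 ± 0.081, adjusted p = 0.580), and its exons share 18.9% of their bases with Aste1 on the other strand.

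Sodium/calcium exchangers trade sodium entry for calcium export. Slc8a2, the most abundant of them per length at 77.5 FPKM, was at 399 and 415 CPM in control libraries and 409.8 and 410.3 CPM in ATO libraries. Its difference was 0.011 ± 0.073 (95% interval -0.14 to 0.17), and the ATO values lay between the controls. Slc8a1 was at 194 and 193 CPM in control libraries and 155 and 171 CPM in ATO libraries, a log2 fold change of -0.24 ± 0.077 that did not pass (unadjusted p = 0.00637, adjusted p = 0.0976). Slc8a3 was at 13.1 and 13.1 CPM in control libraries and 10.2 and 10.4 CPM in ATO libraries (-0.35 ± 0.15, unadjusted p = 0.0342, adjusted p = 0.233). For both genes each ATO library was below each control, and the replicates of Slc8a3 agree within 1.02-fold in either group. Slc8a1 held 11.6% and 11.2% of the summed Slc8 FPKM in control libraries and 9.39% and 10.2% in ATO libraries. The CA1 markers had lower summed levels in the ATO libraries as well (347 and 475 against 515 and 512 CPM, 2 of 5 fell, 0 at 0 counts). So had 9 GABA interneuron markers (792 and 848 against 895 and 971 CPM, 7 lower, 2 higher, 1 fell). The 9 dentate granule markers went the other way (529 and 470.4 against 435 and 384 CPM, 7 higher, 2 lower, 2 rose). The part of any of these in the lower values was not tested.

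The Slc24 exchangers, which also move potassium, did not pass. Slc24a2 was at 600.2 and 544 CPM in control libraries and 555 and 552 CPM in ATO libraries (-0.048 ± 0.077), with overlapping groups. Slc24a3 and Slc24a4 differed by -0.13 and 0.16. Slc24a5, known for its role in pigment cells, had 79 and 51 counts in control libraries and 77 and 61 counts in ATO libraries; its exons share 39.5% of their bases with the more abundant Myef2 on the opposite strand, and with the strand setting of the counting not given, its level is uncertain.

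Sodium/proton exchangers, which keep cells and organelles from becoming acid or alkaline, showed 0 calls. Slc9a2 had an unadjusted p of 0.0124: it was at 48.1 and 49.5 CPM in control libraries and 40.2 and 41.5 CPM in ATO libraries (-0.26 ± 0.090, adjusted p = 0.141). Both ATO libraries were lower, by more than the gap in either group. A further 6 members (Slc9a3, Slc9a4, Slc9a5, Slc9a7, Slc9a8 and Slc9a9) differed by between -0.33 for Slc9a3, which had 18 to 22 counts per library, and 0.11 for Slc9a7.

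Cation/chloride cotransporters held 2 of the 4 members that rose. Slc12a4 and Slc12a7 encode KCC1 and KCC4, potassium/chloride cotransporters that let chloride and water leave swollen cells; Slc12a5 encodes KCC2, the chloride extruder of mature neurons. Slc12a4 (ENSMUSG00000017765, chromosome 8 from 105943590 to 105966097, minus strand, GRCm38) was at 18.2 and 17.9 CPM in control libraries and 25.1 and 24.4 CPM in ATO libraries. Replicates agree within 1.03-fold and the ATO libraries are clearly higher. Its rise was 1.37-fold (log2 0.46 ± 0.11, adjusted p = 0.0423). Slc12a7 (ENSMUSG00000017756, chromosome 13 from 73733094 to 73816754, plus strand) was at 4.95 and 4.24 CPM in control libraries and 8.38 and 7.77 CPM in ATO libraries, from 73 and 64 counts against 146 and 129. The groups are well apart against gaps of 1.17-fold in the controls and 1.08-fold in ATO. It rose 1.76-fold (log2 0.81 ± 0.21, adjusted p = 0.0435).

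On the opposite strand the gene model Gm16156, which is not in the table, overlaps 8.44% of the exon bases of Slc12a4. Leaving out any library ended both calls, with adjusted p from 0.0835 to 0.198 for Slc12a4 and from 0.0536 to 0.197 for Slc12a7. DESeq2 also gave no call (adjusted p = 0.165 for Slc12a4 and 0.156 for Slc12a7). The log2 fold changes moved little, from 0.44 to 0.48 for Slc12a4 and from 0.70 to 0.93 for Slc12a7, when single libraries were left out. The choroid plexus and ependymal markers given above moved with these genes as well, and the leptomeningeal markers did in part. The contribution of these markers was not tested.

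The neuronal cotransporter gene did not pass. Slc12a5 was at 395 and 414 CPM in control libraries and 356 and 391 CPM in ATO libraries (-0.11 ± 0.077, 95% interval -0.28 to 0.051, adjusted p = 0.475). Both ATO libraries were below both controls, by a small margin. The intervals of Slc12a4 (0.21 to 0.70) and of Slc12a5 do not overlap, though the difference between the genes was not tested. Slc12a9, an orphan relative, differed by -0.18.

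Per length Slc12a5 was the highest of these 3 potassium/chloride cotransporter genes, with 92.0% and 92.5% of the summed FPKM of the 3 in control libraries and 88.0% and 89.3% in ATO libraries. The share of Slc12a4 was 7.37% and 6.97% against 10.8% and 9.70%, and that of Slc12a7 0.682% and 0.549% against 1.22% and 1.04%. Slc12a2, the sodium-coupled importer NKCC1 that the rule leaves out, rose from 62.2 and 65.3 to 77.3 and 81.2 CPM (log2 0.31 ± 0.081, adjusted p = 0.0464), a call lost without any 1 library (adjusted p from 0.105 to 0.238), with limma-voom (0.0533) and with DESeq2 (0.132). The FPKM ratio of Slc12a5 to Slc12a2 was chosen after its values were seen. It was 9.30 and 9.31 in control libraries and 6.76 and 7.07 in ATO libraries. The ratio was lower in both ATO libraries and was not tested. Choroid plexus markers were higher in the same ATO libraries (15 of 15 rose, 139.7 and 214 against 3329 and 4180 CPM), and 7 of 12 ependymal markers rose. The part of these in the rise of Slc12a2 and in the lower ratio was not tested.

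Promoter sequences of the cotransporter genes that rose, and of the more abundant Slc12a5 that did not, are shown with Fxyd1 to let the start regions be compared. Each is the 250 bases before the RefSeq start (GRCm38.p6; Fxyd1 at chr7:31054854-31055103, minus strand; Slc12a4 at chr8:105966116-105966365, minus strand; Slc12a7 at chr13:73763410-73763659, plus strand, 1 of 2 starts; Slc12a5 at chr2:164960596-164960845, plus strand, 1 of 2 starts), written 5′ to 3′ along the gene. By the gene bounds given above, the windows of Fxyd1 and Slc12a7 lie inside the gene, downstream of its outermost start. The last bases of the Slc12a5 window also lie in its gene, which starts at 164960802. The other start of Slc12a7 and of Slc12a5 is not shown. Capitals mark the GC box GGGCGG on either strand.
Fxyd1: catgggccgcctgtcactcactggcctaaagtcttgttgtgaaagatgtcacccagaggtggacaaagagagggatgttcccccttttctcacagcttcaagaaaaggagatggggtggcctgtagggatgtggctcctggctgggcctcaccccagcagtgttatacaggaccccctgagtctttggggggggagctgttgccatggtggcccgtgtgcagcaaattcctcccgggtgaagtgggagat
Slc12a4: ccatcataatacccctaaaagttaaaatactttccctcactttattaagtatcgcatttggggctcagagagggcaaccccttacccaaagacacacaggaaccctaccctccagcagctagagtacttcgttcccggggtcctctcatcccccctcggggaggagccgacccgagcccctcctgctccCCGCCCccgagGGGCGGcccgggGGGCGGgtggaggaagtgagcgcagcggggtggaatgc
Slc12a7: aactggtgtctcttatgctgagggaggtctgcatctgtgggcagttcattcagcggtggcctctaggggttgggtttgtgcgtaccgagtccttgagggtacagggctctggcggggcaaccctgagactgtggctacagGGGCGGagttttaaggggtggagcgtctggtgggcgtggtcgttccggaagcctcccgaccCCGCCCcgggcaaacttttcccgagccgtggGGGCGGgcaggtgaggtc
Slc12a5: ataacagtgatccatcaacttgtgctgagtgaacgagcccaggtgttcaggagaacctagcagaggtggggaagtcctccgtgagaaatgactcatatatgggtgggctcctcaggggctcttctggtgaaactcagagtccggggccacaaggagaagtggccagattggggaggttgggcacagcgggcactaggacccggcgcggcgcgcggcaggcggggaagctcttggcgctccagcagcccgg
The GC box, a binding sequence of SP family factors, occurred 3 times for Slc12a4, 3 times for Slc12a7 and 0 times for Slc12a5 and Fxyd1. It was in 32.9% of the 250-base windows of all 27025 genes in the RefSeq table, and in 18 of the 35 members matched there (51.4%). The windows of these 35 members had a median of 61.6% G and C against 52% for all genes. These shares, and those of the TATA box, count only the first listed window of each gene. For Slc12a7 and Slc12a5 that window may differ from the window shown. The TATA box TATAAA, searched on both strands with no overlap with the GC box, was in none of the 4 windows shown, in 3 of the 35 members and in 13.0% of all genes. A match describes letters only. Slc26a7 was not matched.

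**Figure D4:**
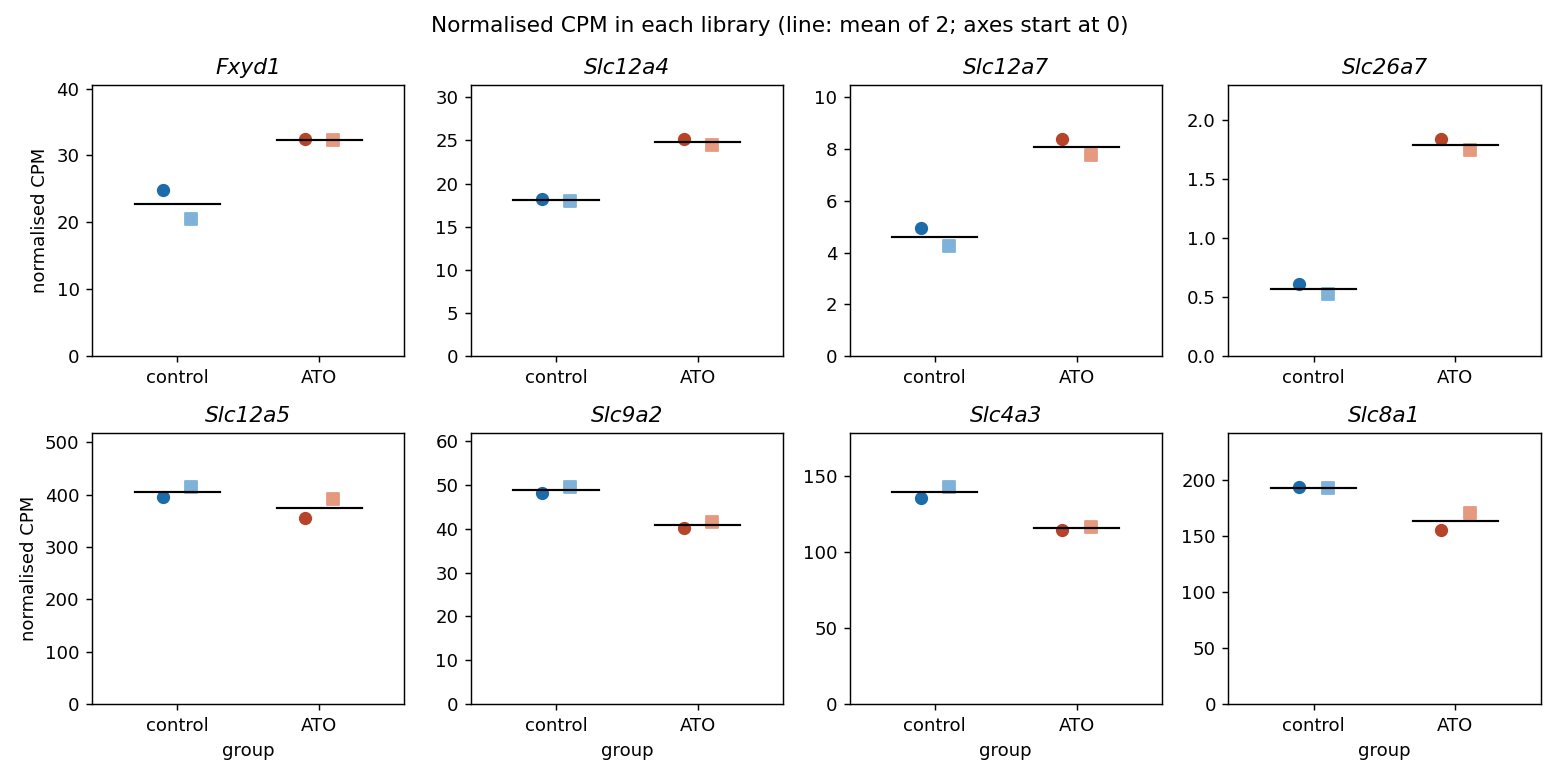
Normalised CPM (vertical axis, from 0) in each library for the 4 members that rose (Fxyd1, Slc12a4, Slc12a7, Slc26a7) and for Slc12a5, Slc9a2, Slc4a3 and Slc8a1, with a circle for replicate 1 and a square for replicate 2 of each group and a line at their mean. For the 4 that rose both ATO points lie above both controls; the other 4 have both ATO points below both controls by smaller fractions.

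Of the Slc26 anion transporters Slc26a7 rose and the other 6 did not pass. Slc26a7 (ENSMUSG00000040569, chromosome 4 from 14502430 to 14621805, minus strand, GRCm38), a chloride/anion transporter known from kidney, stomach and thyroid, had 9 and 8 counts in control libraries and 32 and 29 counts in ATO libraries, or 0.610 and 0.530 CPM in control libraries and 1.84 and 1.75 CPM in ATO libraries. These are low counts, with ATO libraries about level with each other and above both controls. The rise was 3.12-fold (log2 1.64 ± 0.42, 95% interval 0.73 to 2.55, adjusted p = 0.0470). Leaving out any library ended the call (adjusted p from 0.0902 to 0.209), as did scaling by library size only (0.0514), limma-voom (0.0566) and DESeq2's Wald test (0.274), and in the authors' deposited table its adjusted p is 0.0578. Choroid plexus and ependymal markers were higher in the same libraries (15 of 15 and 7 of 12 rose). Of 9 leptomeningeal markers 8 had a log2 fold change above 0 (1 rose and 1 fell). A difference of over 1.5-fold was found for 7 of the 9, and for 1158 of all 15713 genes. Both ATO libraries lay above both controls for 5 of the 9 (24.8% of all genes) and below them for 1 (23.4% of all genes). The part of any of these in this rise was not tested.

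The most abundant Slc26 gene per length was Slc26a4, which encodes the chloride/iodide/bicarbonate exchanger pendrin, at 9.10 FPKM. It was at 30.2 and 28.9 CPM in control libraries and 27.5 and 26.9 CPM in ATO libraries (-0.12 ± 0.10, adjusted p = 0.604). The others (Slc26a2, Slc26a6, Slc26a8, Slc26a10 and Slc26a11) differed by between -0.33 for Slc26a8 and 0.24 for Slc26a6. The ATO libraries of Slc26a11 differed 1.67-fold from each other, with 137 and 78 counts. Slc26a10 shares 17.8% of its exon bases with B4galnt1 on the opposite strand.

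The bicarbonate transporter genes among the members did not pass, with 0 of 4 genes. The rule leaves out Slc4a2, Slc4a5 and Slc4a10. Of these Slc4a5 (log2 6.53 ± 0.35, adjusted p = 4.32e-08) and Slc4a2 (0.91 ± 0.10, 9.49e-05) rose in edgeR's quasi-likelihood test. Slc4a5 had 4 and 1 counts in control libraries against 260 and 292 in ATO libraries. Choroid plexus markers were higher in the same ATO libraries (15 of 15 rose, 139.7 and 214 against 3329 and 4180 CPM), and 7 of 12 ependymal markers rose. The part of these in the rises of Slc4a5 and Slc4a2 was not tested. Slc4a10 did not pass (0.053 ± 0.079). Of the 4 members Slc4a3, which encodes the chloride/bicarbonate exchanger AE3 of neurons and heart, came closest. It was at 136 and 143 CPM in control libraries and 114 and 117 CPM in ATO libraries. Replicates agree within 1.05-fold and each ATO library is below each control. The log2 fold change was -0.27 ± 0.075 (95% interval -0.43 to -0.11, unadjusted p = 0.00289, adjusted p = 0.0636). Slc4a4, the sodium/bicarbonate cotransporter of astrocytes, was at 173 and 144 CPM in control libraries and 171 and 167 CPM in ATO libraries (0.092 ± 0.087); control replicate 2 was the low library and the other 3 were alike. Slc4a7 was at 75.5 and 67.7 CPM in control libraries and 82.0 and 71.6 CPM in ATO libraries (0.10 ± 0.091), and the neuronal Slc4a8 at 88.7 and 93.2 CPM in control libraries and 81.3 and 91.9 CPM in ATO libraries (-0.070 ± 0.084). The groups overlapped for these 3 genes.

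Sodium/phosphate cotransporters of family 20 import phosphate for the cell's own use. Slc20a1 was at 126 and 136 CPM in control libraries and 113 and 132 CPM in ATO libraries (-0.10 ± 0.088, adjusted p = 0.597). Slc20a2, mutated in familial brain calcification in humans, was at 51.8 and 50.1 CPM in control libraries and 51.6 and 54.4 CPM in ATO libraries (0.056 ± 0.087, adjusted p = 0.792). The groups overlapped for both.

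Genes that regulate or assist these transporters were taken from 3 lists of 51 genes, of which 44 were in the table. Of the 44, 2 rose (4.55%, near the 2.87% of all genes) and 0 fell, with a median log2 fold change of 0.017. Both that rose are in the list for the WNK and SPAK/OSR1 kinase cascade, which switches cation/chloride cotransporters by phosphorylation. Cab39l encodes MO25-beta, a scaffold that activates the kinases SPAK and OSR1; it was at 28.6 and 25.8 CPM in control libraries and 49.3 and 49.2 CPM in ATO libraries and rose 1.81-fold (log2 0.86 ± 0.098, adjusted p = 0.000127). Sgk1, a kinase induced by glucocorticoids that acts on ion transport, was at 62.1 and 71.0 CPM in control libraries and 106 and 117 CPM in ATO libraries (log2 0.75 ± 0.089, adjusted p = 0.000174). Both ATO libraries stood well above both controls for these 2 genes, and the calls held without each library and in each other test. In this list 2 of 13 genes rose (15.4%, against 2.87% of all genes) and the median was 0.14, against -0.0050 over all genes. An unadjusted p under 0.05 with higher values in ATO was found for 5 of the 13 (10.6% of all genes). The list was chosen with results known, and these counts are a description.

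The WNK, SPAK and OSR1 kinase genes did not pass. Stk39, which encodes SPAK and is named here, like Nedd4l and Klhl3, after its values were seen, was at 54.6 and 65.4 CPM in control libraries and 70.6 and 74.7 CPM in ATO libraries (0.28 ± 0.094, adjusted p = 0.131), and the smallest p after those that passed belonged to Nedd4l (0.29 ± 0.083, adjusted p = 0.0713) and Klhl3 (0.27 ± 0.079, 0.0733), a ubiquitin ligase and an adaptor that limit transporter and WNK levels. Without control replicate 1 the count of partner genes that rose was 4, with Nedd4l (adjusted p = 0.0343) and Ahcyl2 (0.0244) added. Among 19 binding partners and small regulators 0 passed, and the smallest p were those of Ahcyl2 (0.29 ± 0.091, adjusted p = 0.105), a relative of the bicarbonate transporter activator IRBIT, and Slc9a3r2 (0.27 ± 0.10, 0.172), a scaffold of sodium/proton exchangers. Among 12 related transporters and pumps outside the rule 0 passed; Atp13a5 (-0.60 ± 0.18, adjusted p = 0.0799) and the magnesium transporter gene Slc41a1 (0.22 ± 0.088, 0.206) had the smallest p. Summed choroid plexus markers (3329 and 4180 CPM in ATO against 139.7 and 214) were higher in the same libraries as Cab39l and Sgk1. So were summed ependymal markers (70.4 and 50.5 against 31.5 and 33.97). Of 9 leptomeningeal markers 8 had a log2 fold change above 0. Both ATO libraries lay above both controls for 5 of the 9 (24.8% of all genes) and below them for 1 (23.4% of all genes). The part of any of these was not tested.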

How the data were processed

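Messenger RNA was made into libraries with the Illumina TruSeq kit, per the labels' protocols. FastQC 0.10.1, cutadapt 1.9.1, HISAT2 2.0.1 and HTSeq 0.6.1, with R 4.1.0, limma 3.47.15 and GRCm38, are named in the submitters' processing notes; which step each did, and the strand setting, is not given in the sources used here. Per the file headers, the authors deposited a read count and an FPKM value per gene and library, and the authors' log2 fold change, p-value and adjusted p-value. Replicate counts differed by more than sampling noise (chi-square per degree of freedom 7.33 and 5.35). FPKM served to compare genes and to give shares and ratios of genes within each library, and was not used in a test.

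The test was edgeR 4.0.16 (R 4.3.3) with TMM factors of 0.994 to 1.01, filterByExpr, which removed 0 genes, and a quasi-likelihood fit with Benjamini-Hochberg adjustment over 15713 genes. The SE is the log2 fold change over the square root of F; 95% intervals use the fit's degrees of freedom. Alternatives were DESeq2 1.42.0 (Wald test), limma-voom (limma 3.58.1), library size only, no filter, each library left out, and a replicate block. The fit was tested on simulated counts. It called 49.3% of the genes given a 1.5-fold change, 85.1% at 2-fold and 97.0% at 4-fold. Of its 161 calls 7 were false. A gene that did not pass may therefore still differ between the groups.

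Members, lists and markers were chosen with earlier results of these data known. Library values are given for members that passed, the highest of each family by FPKM and a list of well-studied members, 24 in all; some members are counted in the totals and not reported here by name, and others are given by family or for an unadjusted p under 0.05. Positions and exon overlaps are from GENCODE vM21 (GRCm38).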

Additional observations from a re-analysis of the deposited data

How the results depend on the processing

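With 2 libraries per group the member calls lie near the threshold. Leaving out each library in turn, the members that rose numbered 0 to 1 (0 without control replicate 2, and Fxyd1 alone without each of the other 3), the partner genes that rose 2 to 4, and all genes that passed 222 to 611, against 4, 2 and 586. DESeq2's Wald test called 0 members and 316 genes. The replicate numbers do not pair the libraries by the labels, and same-numbered libraries deviated together only weakly (correlation across genes 0.088); with the replicate number as a block, 1366 genes passed, 4 members rose and 2 fell (Slc4a3, adjusted p = 0.0105, and Slc8a1, 0.0179), and 6 partner genes rose and 1 fell. Of 216 values of 24 members under 9 settings 187 kept direction and side of the threshold. A further 19 lost the call, 2 gained it and 8 changed sign, none of these called. The setting with no filter repeats the main fit, since filterByExpr removed 0 genes, so its values could not differ. All 19 lost calls belong to the 4 members that rose. Most of the 187 are values of members with no call in either fit. Leaving out single libraries, log2 fold changes that changed sign ran from -0.069 to 0.057 for Atp2a2, -0.29 to 0.0034 for Atp2b1, -0.22 to 0.011 for Slc20a1, -0.12 to 0.028 for Slc24a2, -0.035 to 0.23 for Slc4a4, -0.16 to 0.015 for Slc4a8 and -0.014 to 0.036 for Slc8a2. The cause was not tested.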
